A study of Mus musculus with 6 samples.

Results

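The collagen genes considered here were the protein-coding genes of the curated RefSeq annotation of mm10 whose symbol reads Col, a number, a and a number. The rule found 44 genes among 21000, on 15 chromosomes, with 49 transcription start sites (TSSs). Each was searched for Lsd1 peaks within 2000 bp of any of its TSSs, called promoter peaks, and for peaks with their centre between its ends, called gene-body peaks, and was set against the other 20956 protein-coding genes. Lsd1 is a histone demethylase of lysine 4 of histone H3 that works within repressor complexes. The study also describes activation of genes by Lsd1 through another lysine of histone H3, so a peak alone does not tell repression from activation. Lsd1 was mapped by ChIP-seq in C2C12 cells, a mouse myoblast line.

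Cells were taken on day 1 of differentiation in 3 conditions, at passages 3 to 5. Wild-type C2C12 cells were kept in myogenic medium with 2% horse serum, or in adipogenic medium with 10% FCS, isobutylmethylxanthine, indomethacin, dexamethasone, insulin, T3 and rosiglitazone. LSD1(OE) cells were kept in the same adipogenic medium. They are a separately selected line carrying a lentiviral, tetracycline-controlled, Flag-tagged LSD1, so that selection with G418, doxycycline and the line itself cannot be told apart from the extra LSD1. Each condition had 1 ChIP library and 1 input library, so every difference below is a difference between single libraries, and no test was made. The libraries held 46155625 (myogenic), 63915769 (adipogenic) and 55193310 (LSD1(OE)) ChIP tags after removal of duplicates, and 43426, 18893 and 33533 peaks genome-wide. The smallest number of tags in a peak was 27, 35 and 30, so weaker binding was not detectable at this depth. RNA was not analysed here, so neither the expression of these genes nor the identity of the cells was checked.

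Collagens are proteins of the extracellular matrix made of 3 chains wound into a triple helix. Fibrillar collagens form the cables of connective tissue, type IV collagen forms the sheet of basement membranes that surrounds every muscle fiber, type VI collagen forms beaded filaments that link these, and fibril-associated collagens decorate the surface of fibrils. Myoblasts and the fibroblast-like cells of muscle secrete several of them, and the balance of matrix changes when precursors become muscle or fat.

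Of the 44 collagen genes, 22 carried Lsd1 at a promoter in some condition. The type IV genes Col4a1 and Col4a2, the fibrillar gene Col5a1 and the basement membrane gene Col18a1 carried the highest-scoring promoter peaks, in each of the 3 libraries. A promoter peak was found at 19 of 44 collagen genes in the myogenic library (43.2%, 95% Wilson interval 29.7 to 57.8%), 11 in the adipogenic library (25%, 14.6 to 39.4%) and 15 in the LSD1(OE) library (34.1%, 21.9 to 48.9%). Of the other genes, 51.6, 30.0 and 41.2% had one. The collagen share was thus the lower of the pair in each library, and each interval held the share of the other genes. At equal peak numbers, with the 18893 highest-scoring peaks of each library, the counts were 15, 11 and 13. MACS scaled up the ChIP tags of the myogenic and LSD1(OE) libraries the most, and with the scaling taken out of the scores the counts were 16, 11 and 13. The call was then lost at 5 places, at Col26a1 (31.5), Col27a1 (29.2) and Col6a5 (28.2) in the myogenic and Col3a1 (36.3) and Col24a1 (42.8) in the LSD1(OE) library.

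**Figure D1:**
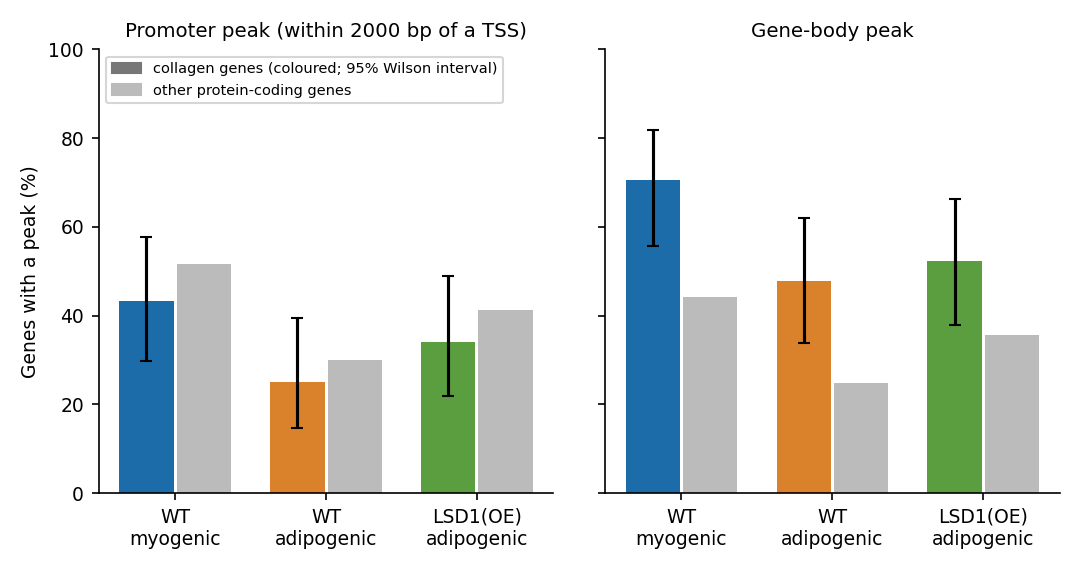
Share of genes (y axis, %) with an Lsd1 peak within 2000 bp of a TSS (left) or in the gene body (right) in the 3 libraries, for the 44 collagen genes (coloured bars, 95% Wilson intervals) and the 20956 other protein-coding genes (grey bars). Collagen bars lie below the grey bars for promoters, by less than their intervals, and above them for gene bodies, where the grey shares of 44.2, 24.9 and 35.7% fall under the intervals. Gene length, with a median of 114 kb in collagen genes and 16.7 kb in the others, is not matched here.

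Col4a1 and Col4a2 encode the chains of the commonest type IV collagen and lie head to head on chromosome 8, Col4a1 on the minus and Col4a2 on the plus strand. Their annotated first exons overlap by 22 bases, chr8:11312805-11312826 in GRCm38.p6, shown here on the plus strand because 1 Lsd1 peak per library covers the start of both genes. Capitals mark GGGCGG, the GC box bound by factors of the Sp family.

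Col4a1/Col4a2 overlap: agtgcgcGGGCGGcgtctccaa

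That shared peak had a MACS score, 10 times the negative log10 of its p-value, of 895.5 with 237 tags in the myogenic library, 430.57 with 233 tags in the adipogenic library and 1491 with 359 tags in the LSD1(OE) library. It was 2807, 2461 and 3585 bp long. The other pairs of type IV genes are built alike but lacked a promoter peak throughout. Col4a4 and Col4a3, chains of the kidney filter's basement membrane, start 71 bases apart at chr1:82586850-82586920, and the plus strand between the starts, free of the motifs searched, is shown for comparison with the bound pair. Col4a6 and Col4a5 start 1342 bases apart on chromosome X.

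Col4a4/Col4a3 between starts: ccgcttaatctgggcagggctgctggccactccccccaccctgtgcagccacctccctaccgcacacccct

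For 4 further genes with a promoter peak in all 3 libraries, the 250 bases before the TSS are shown, 5′ to 3′ on the strand of the gene, from the RefSeq promoter table of GRCm38.p6, which held 35 of the 44 genes. Capitals mark the GC box GGGCGG, the box CCAAT read by NF-Y and the TATA box TATAAA on either strand. Col18a1 (chr10:77166531-77166780, minus strand, the more upstream of its TSSs) and Col5a1 (chr2:27886175-27886424, plus strand) had the highest-scoring peaks of these genes. Col8a1 (chr16:57754738-57754987, minus strand) and Col3a1 (chr1:45311288-45311537, plus strand) show the range of base composition.

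Col18a1: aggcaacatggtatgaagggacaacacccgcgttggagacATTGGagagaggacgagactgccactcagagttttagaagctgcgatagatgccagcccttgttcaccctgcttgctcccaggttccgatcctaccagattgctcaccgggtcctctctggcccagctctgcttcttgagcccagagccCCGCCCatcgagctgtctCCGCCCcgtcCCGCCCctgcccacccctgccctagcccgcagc
Col5a1: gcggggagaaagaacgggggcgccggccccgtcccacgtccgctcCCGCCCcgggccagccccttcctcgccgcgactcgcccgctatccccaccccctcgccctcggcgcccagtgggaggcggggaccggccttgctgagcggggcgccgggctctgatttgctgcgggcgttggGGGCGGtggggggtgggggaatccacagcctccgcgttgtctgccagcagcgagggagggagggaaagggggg
Col8a1: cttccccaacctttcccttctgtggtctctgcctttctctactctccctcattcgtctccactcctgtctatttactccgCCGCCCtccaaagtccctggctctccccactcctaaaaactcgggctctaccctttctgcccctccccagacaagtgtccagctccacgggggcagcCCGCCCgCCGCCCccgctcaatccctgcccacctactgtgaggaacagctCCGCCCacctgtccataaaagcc
Col3a1: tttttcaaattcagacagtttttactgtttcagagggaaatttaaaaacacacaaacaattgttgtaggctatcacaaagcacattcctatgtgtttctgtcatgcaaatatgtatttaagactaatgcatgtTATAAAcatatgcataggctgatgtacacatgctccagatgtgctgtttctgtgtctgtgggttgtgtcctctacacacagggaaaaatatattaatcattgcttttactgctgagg

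The Col5a1 stretch held 28 CpG dinucleotides and 2 GC boxes at a GC content of 76.4%, and that of Col18a1 held 12 CpGs and 3 GC boxes at 62% GC. Col8a1 had 4 GC boxes and 10 CpGs. Col3a1 had none of either, at 35.2% GC, and a TATAAA. Promoters from 250 bases before to 50 after the TSS, read from the genome for all 44 genes, held GGGCGG at 28 genes (63.6%, against 47.9% of all 21000 genes), CCAAT at 15 (34.1% against 38.9%) and TATAAA at 7 (15.9% against 13.0%). A match is a description of the letters and not evidence of binding by a factor.

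Among the fibrillar collagens, 8 of 11 had a promoter peak in the myogenic, 3 in the adipogenic and 6 in the LSD1(OE) library, beside 51.6, 30.0 and 41.2% of the other genes. Col5a1, whose type V chain starts the assembly of collagen fibrils, had scores of 832, 584 and 1479 with 202, 275 and 448 tags in the myogenic, adipogenic and LSD1(OE) libraries. Its LSD1(OE) peak spanned 5220 bp, compared with 2501 bp in the myogenic library. Col1a1, one of the chains of type I collagen, had scores of 552, 140.42 and 314 with 172, 93 and 135 tags. The centres of its peaks lay 1077, 1047 and 1575 bp downstream of the TSS, within intron 1. Col3a1, the type III chain of fine reticular fibers, had 81, 66 and 41 tags and scores of 312, 86.1 and 66.3, so that its peak was highest in the myogenic library and lowest in LSD1(OE).

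Partner chains of one collagen differed in where a promoter peak was called. Col1a2, the second chain of type I collagen, had a promoter peak in the LSD1(OE) library with a score of 164 and 65 tags, centred 15 bp upstream of the TSS. Neither wild-type library had one, although Col1a1 had a peak in all 3 libraries. The nearest peaks to the Col1a2 TSS were 2855 bp downstream in the myogenic and 2217 bp upstream in the adipogenic library, just beyond the 2000 bp limit. Of the type V genes, Col5a2 had peaks in the myogenic (424, 120 tags) and LSD1(OE) library (259, 105 tags), and Col5a3 in the myogenic library (440.15, 118 tags). The LSD1(OE) peak nearest to Col5a3 lay 2092 bp downstream of its TSS. Col24a1 had weak peaks in the myogenic (102) and LSD1(OE) library (78.1), and Col11a2 (157) and Col27a1 (55.3, near the lowest score of 50) had theirs in the myogenic library. Col11a1 and the cartilage collagen Col2a1 had no promoter peak. The nearest Col2a1 peaks lay 2868 bp (myogenic) and 2758 bp (adipogenic) downstream, in intron 1.

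**Figure D2:**
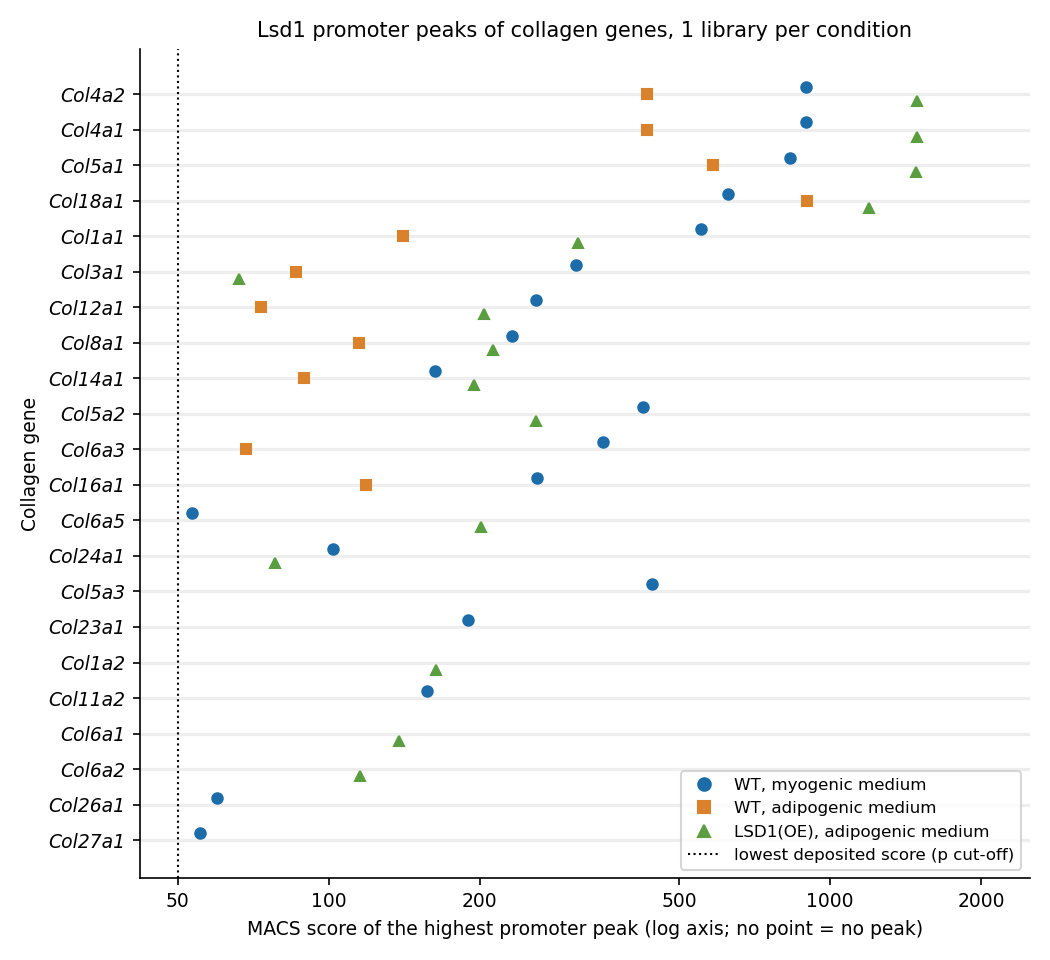
MACS score (x axis, log scale) of the highest-scoring promoter peak of each of the 22 collagen genes with a promoter peak, in each library (blue circles, wild-type myogenic; orange squares, wild-type adipogenic; green triangles, LSD1(OE) adipogenic), 1 library per condition. The topmost 9 genes have a point in every library. Col4a1 and Col4a2 share their peak, and Col1a2, Col6a1 and Col6a2 have an LSD1(OE) point alone.

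Of the 6 beaded-filament genes of type VI, 2 had a promoter peak in the myogenic, 1 in the adipogenic and 3 in the LSD1(OE) library, beside the same 51.6, 30.0 and 41.2%. Col6a1 and Col6a2, which encode chains of the type VI collagen of muscle, had peaks in the LSD1(OE) library, with scores of 138 and 115 and 73 and 61 tags. Those peaks were far from the TSS: 1528 bp upstream at Col6a1, and 1857 bp upstream and 1753 bp downstream (score 54.3) at Col6a2, and no promoter peak lay closer to the inside of the 2000 bp limit than those of Col6a2. With Col1a2 they made 3 of 25 collagen genes with an LSD1(OE) promoter peak and none in the wild-type libraries (12%, 4.17 to 30.0%), compared with 5.41% of the other genes. Col6a3, the third chain, went the other way, with scores of 353 (115 tags) in the myogenic and 68.5 (60 tags) in the adipogenic library, and its nearest LSD1(OE) peak was 2544 bp downstream. Col6a5, an alternative chain, had 53.5 (30 tags) in the myogenic and 201 (80 tags) in the LSD1(OE) library. Col6a4 and Col6a6 had no promoter peak.

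Among 9 fibril-associated collagens, 3, 3 and 2 had a promoter peak, beside 51.6, 30.0 and 41.2% of the other genes. Classes of so few genes give no more than counts. Col12a1 and Col14a1, which link fibrils to the surrounding matrix, had one in all 3 libraries. Col12a1 had scores of 258, 73.2 and 204, and Col14a1 had 163, 89.1 and 195. The LSD1(OE) peak of Col14a1 was 4236 bp long with 368 tags. Col16a1 had peaks in both wild-type libraries (259.92 and 119), and its nearest LSD1(OE) peak was 2706 bp downstream. Col9a1, Col9a2 and Col9a3, the cartilage type IX chains, and Col19a1, Col20a1 and Col22a1 had no promoter peak. Of the others, Col18a1, the multiplexin whose fragment endostatin restrains vessel growth, had scores of 625, 900.37 and 1192 and 151, 327 and 308 tags. The order of its wild-type scores was the reverse of that at Col4a1, Col5a1 and Col1a1. With the scaling taken out of the scores, Col5a1 had 439 (myogenic) and 458 (adipogenic), the same order as Col18a1 (329 and 706). Col4a1 (472 and 337) and Col1a1 (291 and 110) kept the reverse order. Col8a1, a short-chain collagen of vessel walls, had peaks of 77, 76 and 82 tags centred 585, 746 and 627 bp upstream. The transmembrane collagen Col23a1 (189.67) and Col26a1 (59.7) had a promoter peak in the myogenic library only.

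Over the libraries, 9 of 44 collagen genes had a promoter peak in all 3 (20.5% against 26.3% of the other genes), and 22 had one in at least 1 (50%, against 55.1%). Of the 19 genes with a myogenic promoter peak, 11 had one in the adipogenic library (57.9%, 36.3 to 76.9%), compared with 56.4% of the other genes. Of the 8 that did not, 3 had one in LSD1(OE) (37.5%, 13.7 to 69.4%), namely Col24a1, Col5a2 and Col6a5, compared with 52.7% of the other genes. No collagen gene had its promoter peak in the adipogenic library alone. The median score of the collagen promoter peaks was 259.92, 119 and 204 in the myogenic, adipogenic and LSD1(OE) libraries, compared with 323, 142 and 205 for the other genes with one.

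Tag density, here tags per kb of peak per 1000000 ChIP tags, takes out library size and peak length. It was taken at the highest-scoring promoter peak of a gene in each library, so the peaks compared can lie at different places. At Col14a1 they were centred 1092 bp upstream (myogenic, density 1.41) and 320 bp downstream (adipogenic, 1.20). A lower-scoring adipogenic peak 1016 bp upstream of Col14a1 had 1.27. Over the 9 genes with a promoter peak in all 3 libraries the density was lower in the adipogenic than in the myogenic library, by a median log2 ratio of -0.30, and each of the 9 ratios was below 0. Their lowest was that of Col3a1 (-0.60), and that of Col18a1 was 0.00 after rounding, with densities of 1.74 in both libraries. For the other 5514 such genes the median was -0.47. LSD1(OE) over adipogenic gave a median of 0.21 (0.16 for the others), with 0.47 at Col12a1 as the highest and -0.08 at Col3a1 as the lowest value. The Col12a1 value set an LSD1(OE) peak centred 107 bp upstream (density 1.33) against an adipogenic one 951 bp downstream (0.963). A lower-scoring LSD1(OE) peak at Col12a1, 894 bp downstream, had a density of 1.07, so 0.47 is not a difference at a single place. LSD1(OE) over myogenic gave -0.01 (-0.32 for the others), from -0.68 at Col3a1 to 0.21 at Col18a1. Col4a1 and Col4a2 share their peak and so gave the same ratios. These were -0.30 for adipogenic over myogenic, the median itself, and 0.29 for LSD1(OE) over adipogenic. The medians thus count that peak for both genes.

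More collagen genes had a gene-body peak than a promoter peak in each library, but gene bodies are mostly far longer than the promoter windows. Of the gene-body peaks, 12 (myogenic), 8 (adipogenic) and 9 (LSD1(OE)) were also promoter peaks of the same gene. A gene-body peak was found in 31 of 44 genes in the myogenic library (70.5%, 55.8 to 81.8%), 21 in the adipogenic (47.7%, 33.8 to 62.1%) and 23 in the LSD1(OE) library (52.3%, 37.9 to 66.2%), compared with 44.2, 24.9 and 35.7% of the other genes. Collagen genes are long, with a median of 114 kb against 16.7 kb for the others, and length moved with the share. Under 30 kb, 4, 3 and 3 of 9 collagen genes had one in the myogenic, adipogenic and LSD1(OE) libraries, against 33.9, 17.4 and 26.4% of the other genes of that length. From 30 to 100 kb, it was 7, 6 and 7 of 9, against 61.7, 35.6 and 50.4%. From 100 to 200 kb, it was 14, 9 and 9 of 18, against 72.1, 49.3 and 62.0%. Over 200 kb, it was 6, 3 and 4 of 8, against 66.5, 46.0 and 60.1%. Per 100 kb of gene body there were 2.86 collagen peaks in the myogenic library (152 peaks, Poisson interval 2.43 to 3.36), 1.30 in the adipogenic (69, 1.01 to 1.65) and 2.17 in the LSD1(OE) library (115, 1.79 to 2.60), compared with 2.34, 0.995 and 1.78 in the other genes. The 5 genes with the most peaks in a library held 50, 58.0 and 59.1% of the collagen gene-body peaks: Col4a2, Col18a1, Col14a1 and Col5a1 in each, with Col4a1 in the wild-type libraries and Col27a1 in LSD1(OE). The Poisson intervals take every peak as independent. With the peaks gathered in few genes they are too narrow to judge the difference from other genes.

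Introns held 142 of the 152 myogenic, 63 of the 69 adipogenic and 110 of the 115 LSD1(OE) gene-body peaks, and first introns 36, 19 and 22. Col4a2 had 24 in the myogenic, 12 in the adipogenic and 17 in the LSD1(OE) library, the most of the collagen genes in the wild-type libraries and 1 fewer than Col14a1 in LSD1(OE). Its strongest myogenic peak, with a score of 1149 and 261 tags, was in intron 4 at chr8:11380721-11383792, above the score of its promoter peak and 69451 bp downstream of the TSS. The overlapping peaks had 558 (265 tags) in the adipogenic and 1469 (465 tags) in the LSD1(OE) library. They were 2935 and 4823 bp long, compared with 3072 bp in the myogenic library. The LSD1(OE) peak also overlapped a separate myogenic peak at chr8:11385193-11386341, so its tags are not those of the same stretch. Another Col4a2 peak, in intron 20 at chr8:11418842-11420145, had a score of 695 in the myogenic library, and the peaks overlapping it had 178 in the adipogenic and 262 in the LSD1(OE) library. Col4a1, its neighbour, had 8, 5 and 9 peaks.

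Col15a1, the other multiplexin and a component of the muscle basement membrane, lacked a promoter peak throughout and yet had the highest-scoring collagen peak of the LSD1(OE) library. It lay in intron 28, with scores of 619 (146 tags), 889.87 (284 tags) and 1847 (359 tags) in the myogenic, adipogenic and LSD1(OE) libraries. Higher scores than at Col15a1 were found at Col4a2 intron 4 in the myogenic library (1149) and at the Col18a1 promoter in the adipogenic library (900.37). The LSD1(OE) peak was at chr4:47292415-47295435 with a fold enrichment of 8.63, and the adipogenic one had 8.71. The 121 bases around the myogenic summits of the Col15a1 peak (chr4:47293813-47293933) and of the Col4a2 intron 4 peak (chr8:11382754-11382874) are shown on the plus strand, as the strongest sites inside a gene without and with a promoter peak. Capitals mark CAGCTG, an E-box of the kind bound by MyoD and myogenin.

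Col15a1 intron 28: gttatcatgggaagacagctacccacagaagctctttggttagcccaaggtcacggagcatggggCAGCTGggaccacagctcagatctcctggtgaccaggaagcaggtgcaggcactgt
Col4a2 intron 4: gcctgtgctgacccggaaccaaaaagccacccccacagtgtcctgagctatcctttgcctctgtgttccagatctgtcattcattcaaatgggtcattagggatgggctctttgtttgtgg

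The E-box letters were in 11.8% of the 152 myogenic collagen gene-body summit windows, against 12.5% in other genes, in 17.4% against 15% in the adipogenic and in 13.0% against 12.5% in the LSD1(OE) library. The other motifs searched on both strands were TGACTCA, read by AP-1, at 7.24, 5.80 and 7.83% of the collagen windows against 6.39, 6.82 and 5.81%, and GGAATG, read by TEAD factors, at 10.5, 11.6 and 7.83% against 7.44, 7.03 and 6.63%.

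**Figure D3:**
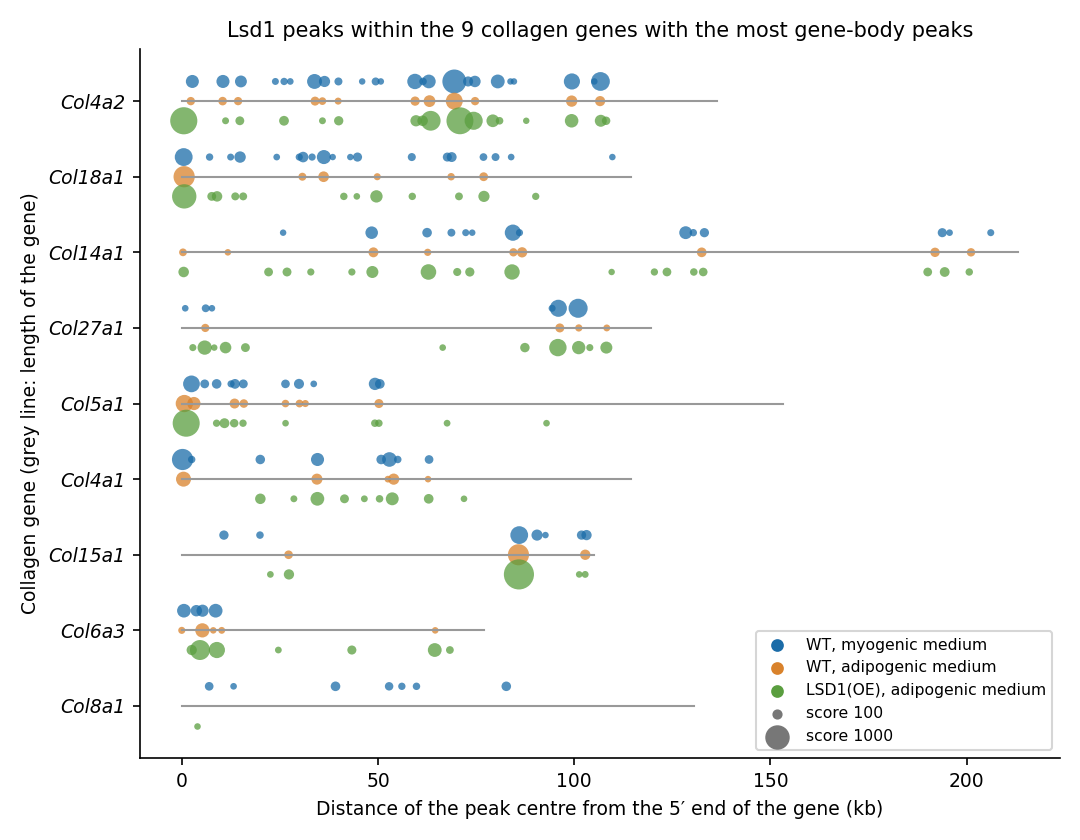
Lsd1 peaks inside the 9 collagen genes with at least 7 gene-body peaks in 1 library: distance of the peak centre from the 5′ end of the gene (x axis, kb), with a row for each library and circle area growing with the MACS score. Col15a1 has its largest circle about 86 kb in, in all 3 rows, and Col8a1 has 7 myogenic circles, none in the adipogenic row and 1 in LSD1(OE).

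Col18a1 had 19, 6 and 12 gene-body peaks, Col14a1 14, 9 and 18, Col5a1 11, 8 and 10, and Col27a1 6, 4 and 11. Col27a1, which had only a weak myogenic promoter peak, had stronger ones near its other end, with 717.50 in intron 41 (chr4:63315513-63317299) and 570.09 in intron 37 in the myogenic library, and 592 in intron 37 and 332 in intron 41 in LSD1(OE). The adipogenic library had 132 and 73.5 at introns 37 and 41. Col16a1 had a peak in intron 42 with 407 in the myogenic, 728 in the adipogenic and 1088 in the LSD1(OE) library. Col6a3 had one in intron 1, with 271 in the myogenic, 384 in the adipogenic and 793 in the LSD1(OE) library, the last of which had no promoter peak at the gene. Col8a1 had 7 gene-body peaks in the myogenic library (scores 55.9 to 156), none in the adipogenic and 1 in LSD1(OE) (54.0), while its promoter peak was in all 3. Col13a1, a transmembrane collagen of the neuromuscular junction, had 4 in the myogenic library (51.3 to 151) and none in the others.

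Overlapping peaks of the 3 libraries were merged into 193 regions inside collagen genes. Of these, 40 had a peak in all 3 libraries (20.7%, 15.6 to 27.0%), against 22.4% in other genes. The myogenic library alone had 67 (34.7% against 35.6%), the LSD1(OE) library alone 42 (21.8% against 19.4%), and the adipogenic library alone 7 (3.63% against 3.35%). Col4a2 had 10 of its 23 regions in all 3 libraries, Col18a1 2 of 22 and Col14a1 5 of 21.

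In 12 genes, among them Col15a1, Col13a1, Col8a2 and Col7a1 of the anchoring fibrils, gene-body peaks came without a promoter peak, and Col6a1 and Col6a5 had a promoter peak without one in the gene body. Col10a1, Col11a1, Col20a1, Col25a1, Col4a4, Col4a5, Col6a4, Col9a1, Col9a2 and Col9a3, 10 genes in all, had no peak of either kind. They include the 3 type IX genes, Col10a1 and Col11a1, whose products are known from cartilage, while Col11a2 and Col2a1, also cartilage collagens, had peaks. Chromosome 15, which carries Col14a1, Col22a1 and Col2a1, had more peaks than other autosomes, with 4.72, 2.51 and 3.59 per 100 kb of gene body against 2.33, 0.976 and 1.77, and its part in the values of those genes was not tested.

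The CpG contents of collagen genes with and without a promoter peak covered much the same range. The CpG ratio, the observed over the expected number of CpG dinucleotides within 500 bp of the most upstream TSS, had a median of 0.474 in the 22 collagen genes with a promoter peak in any library (0.178 to 0.874) and 0.445 in the 22 without (0.0844 to 0.747). In other genes the medians were 0.743 and 0.250 (11539 and 9417 genes). Above a ratio of 0.6, a customary limit of CpG islands, 7 of 13 collagen genes had a promoter peak in at least 1 library (53.8%, 29.1 to 76.8%), compared with 83.9% of the other genes. At 0.6 or less it was 15 of 31 (48.4%, 32.0 to 65.2%), compared with 26.9%. Both intervals left out the share of the other genes, above 0.6 from below and at 0.6 or less from above. In the adipogenic library alone, both intervals held it (12.7 to 57.6% against 48.4%, and 11.4 to 39.8% against 12%). The myogenic interval at 0.6 or less missed it narrowly, with a lower end of 23.7% against 23.3%. The intervals take genes as independent, whereas Col4a1 (0.775) and Col4a2 (0.785), both above 0.6, share their promoter peak and were counted separately. Col9a3 (0.595) and Col2a1 (0.602) lay closest to the limit, both without a promoter peak.

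By library, above 0.6 the collagen counts were 7, 4 and 4 of 13 against 80.5, 48.4 and 64.8% of the other genes, and at 0.6 or less 12, 7 and 11 of 31 (38.7, 22.6 and 35.5%) against 23.3, 12% and 18.1%. Col3a1 (0.178), Col6a1 (0.234), Col24a1 (0.257), Col6a3 (0.262) and Col1a1 (0.300) were the CpG-poorest genes with a peak. Col13a1 (0.747), Col19a1 (0.739) and Col25a1 (0.690) were the CpG-richest without one.

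**Figure D4:**
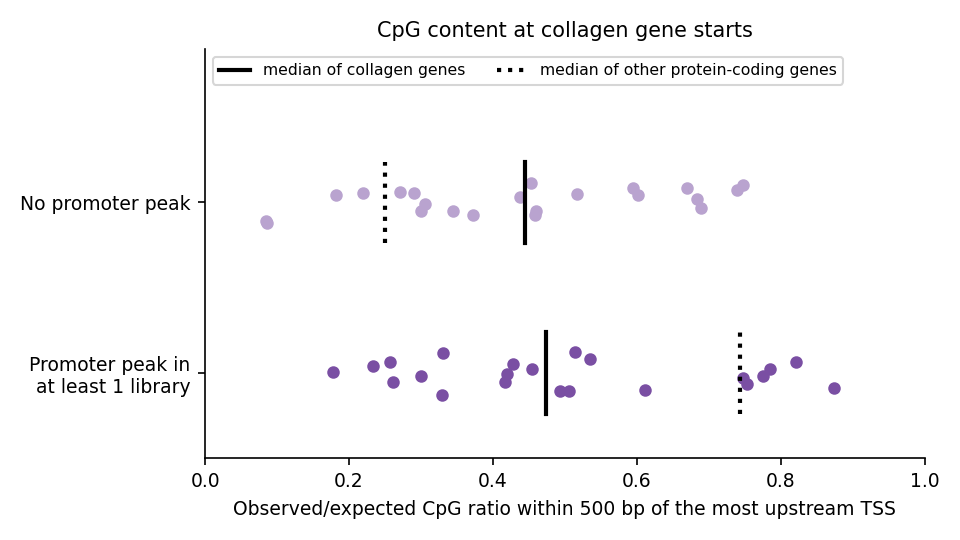
Observed over expected CpG ratio within 500 bp of the most upstream TSS (x axis, no unit) of collagen genes with and without a promoter peak in any library (rows, 22 points each, spread vertically at random for legibility); solid lines, collagen medians (0.474 and 0.445); dotted lines, medians of other protein-coding genes (0.743 and 0.250). The collagen points of both rows cover much the same range.

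Collagen chains need a set of enzymes and carriers to become matrix. Of 48 such genes, 31, 25 and 27 had a promoter peak in the myogenic, adipogenic and LSD1(OE) libraries (64.6, 52.1 and 56.3%), compared with the 51.6, 30.0 and 41.2% above. Of 16 genes that fold and modify the chains in the endoplasmic reticulum, 14, 11 and 12 had one. By their highest score in any library, the leading genes were Colgalt1, which adds galactose to hydroxylysine (3100, 1232 and 2323), and P4ha1, a proline hydroxylase (1393, 244 and 306). Of 11 genes of secretion and trimming, 7, 7 and 8 had one, and the leading genes by the same measure were Adamts14, which removes the amino-terminal propeptide (1482, 683 and 1275), and Sec24d, of the vesicle coat (1011, 433 and 515). Of 5 cross-linking oxidases, 4, 3 and 3 had one: Loxl1 had 1182, 231 and 546, and Lox 391, 554 and 1212. Of 7 collagen receptors, 3, 2 and 2 had one, highest at Ddr1 (1094, 706 and 1099) and Itgb1 (635, 258 and 793), and of 9 genes of degradation 3, 2 and 2, highest at Mrc2, an uptake receptor (733, 78.9 and 546), and the membrane protease Mmp14 (507, 73.5 and 459).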

How the data were processed

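Lsd1 ChIP and input libraries of C2C12 cells were grouped by the sample labels. The authors mapped 50 bp reads to mm10 and called the peaks of each ChIP with MACS 1.4.2, taking the matching input as control, per the file headers (the submitters' processing notes name MACS 1.41 and Bowtie2), at a p cut-off of 1e-05, without pooling. The deposited peak lists hold per peak a count of ChIP tags, not normalized, a score of 10 times the −log10 of the p-value, a fold enrichment over the local background, and an FDR in percent. MACS scaled the smaller library of each pair up to the larger, by 1.90 (myogenic), 1.28 (adipogenic) and 1.82 (LSD1(OE)), so that the score grows with this factor. All deposited peaks were used, and their highest FDR was 0.73%.

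Collagen genes were found by symbol in the curated RefSeq transcripts of GRCm38.p6, and a peak was assigned by its centre. Every collagen gene was listed by structural class, and named with its values where it had a promoter peak or was among the genes with the most gene-body peaks, and 2 genes with the highest scores per group of collagen-handling genes were named. The members, lists and thresholds were chosen with earlier results of these data known. Shares have 95% Wilson and peak densities exact Poisson intervals, which cover counting error only; no test was made, since each condition has 1 library. Motifs and CpG ratios were read from the genome. The assignment was tested on simulated data. Alternatives were stricter peaks, equal peak numbers, tags not scaled up (score divided by the scaling factor), other windows and assignments, and, added after seeing the data, leaving out chromosome 15 or the 5 genes with the most peaks. Matplotlib 3.10.9, SciPy 1.17.1, pandas 2.3.3 and NumPy 2.4.6 were run under Python 3.11.15.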

Additional observations from a re-analysis of the deposited data

How the results depend on the processing

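The share of collagen genes with a promoter peak was below that of other genes in all 39 combinations of library and setting, and the share with a gene-body peak above it in all 27. None of these settings matched genes by length. Within length classes, the LSD1(OE) gene-body share was below from 100 to 200 kb (9 of 18 against 62.0%) and over 200 kb (4 of 8 against 60.1%). The adipogenic share was below over 200 kb (3 of 8 against 46.0%). The remaining classes had it above. Of 87 alternative values, 67 stayed within 1.5 times the reported one. At an FDR of at most 0.1%, the adipogenic library had 6 genes with a promoter peak and 13 with a gene-body peak, LSD1(OE) had 13 with a gene-body peak, and gene-body peaks per 100 kb were 1.47 (myogenic), 0.603 (adipogenic) and 0.980 (LSD1(OE)). At a score of at least 100, the adipogenic promoter count was 7, the LSD1(OE) gene-body count 13, and the densities 1.54, 0.754 and 1.09. At equal peak numbers, the LSD1(OE) gene-body count was 13 and the densities 1.15 (myogenic) and 1.11 (LSD1(OE)). With ChIP tags not scaled up, the LSD1(OE) gene-body count was 14 and the densities 1.64 (myogenic) and 1.26 (LSD1(OE)). Without the 5 genes with the most gene-body peaks, chosen after seeing the data, the densities were 1.66, 0.634 and 1.03; this removes collagen genes by the value measured, so the fall is built in and is no comparison with other genes. Leaving out chromosome 15, also chosen after seeing the data, moved none by 1.5 times. No paired analysis was possible because each condition had 1 library and no result came from a test. Weak binding below 27 to 35 tags a peak was not detectable, and replicate error is unknown.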
